A study of Mus musculus with 12 samples.

Results

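The 10 genes described here are Nfe2l2, which encodes the transcription factor NRF2, and 9 genes of antioxidant defence: Slc7a11, Gclc, Gclm, Hmox1, Txnrd1, Srxn1, Nqo1, Sod1 and Cat. They were taken by symbol from the table of raw counts. All 10 had a row among its 25540 symbols, and all 10 passed the filter on low counts, which kept 15720 genes. Liver RNA came from 12 BALB/c mouse samples, 3 in each of 4 groups that differ in the injected load: siSTAT3, siCntrl, mASO STAT3 and mASO Scrbl. Every group received iExos, which the series title identifies as exosomes, small vesicles that cells release, so the controls carry the vesicle too. The name siSTAT3 is read as a small interfering RNA against Stat3 and mASO STAT3 as an antisense oligonucleotide against it, while the letter m is not explained in the labels. The title places the work in liver fibrosis. The labels give no age or dose, do not state an injury, and do not say whether each library is a separate animal, and p-values cover only the spread among libraries, which may be technical. Livers that received no vesicles were not analysed here.

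NRF2 is held in the cytosol and sent for degradation by KEAP1. When oxidants or electrophiles modify KEAP1, NRF2 accumulates, enters the nucleus, pairs with a small MAF protein and binds antioxidant response elements near its target genes. Because this control acts on the protein, the level of Nfe2l2 mRNA is a poor guide to NRF2 activity. Gclc, Gclm, Slc7a11, Hmox1, Txnrd1, Srxn1 and Nqo1 are well-known targets of NRF2. Sod1 and Cat encode enzymes of the same defence that liver makes in large amounts under several other controls as well. In liver, catalase sits in the peroxisomes of hepatocytes, where fatty acid oxidation makes hydrogen peroxide.

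Library totals ran from 39844158 to 67791159 counts. Levels are CPM, counts divided by library size, on totals scaled by edgeR's TMM factors, which were 0.804 to 0.901 in the libraries of the STAT3 loads and 1.11 to 1.27 in those of the control loads. With unscaled library totals the median log2 fold change of all genes became −0.53 in the siRNA arm and −0.63 in the mASO arm, against −0.04 and −0.05 with TMM, so changes below are relative to the bulk of genes. Stat3 itself, the named target, did not check the labels. Its level was 109.9 ± 16.2 CPM in siSTAT3 livers and 112.5 ± 7.50 CPM in siCntrl livers, and 102.8 ± 13.7 CPM in mASO STAT3 livers and 99.2 ± 8.40 CPM in mASO Scrbl livers (SD, n = 3 each). Its log2 fold changes of −0.03 (siRNA arm, edgeR adjusted p = 0.868) and 0.05 (mASO arm, adjusted p = 0.792) became −0.54 and −0.53 with unscaled totals. Both of these unscaled values passed the threshold of 0.05 (edgeR adjusted p = 0.00446 and 0.00413), so the call for Stat3 depends on the scaling. Groups are therefore named as labelled.

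The 10 genes did not move as 1 group. In both arms Cat, Sod1 and Gclm were higher with the STAT3 load and Slc7a11 and Srxn1 were lower. Hmox1 was lower in the siRNA arm, Gclc and Nqo1 were lower in the mASO arm, and Nfe2l2 and Txnrd1 passed the test in neither arm. In the siRNA arm that is 3 genes higher and 3 lower by edgeR's quasi-likelihood test at an adjusted p under 0.05, where 45.7% of all genes passed, 22.4% higher and 23.4% lower. In the mASO arm it is 3 higher and 4 lower, where 43.8% of all genes passed, 21.3% higher and 22.5% lower. The 6 and 7 genes that passed of 10 are thus not far from the background of all genes, and the median log2 fold change of the 10 was −0.29 and −0.43. With unscaled totals 3 were higher and 7 lower in the siRNA arm, where 10.5% of all genes were higher and 46.2% lower, and 2 were higher and 7 lower in the mASO arm, where 9.70% of all genes were higher and 50.5% lower.

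**Figure D1:**
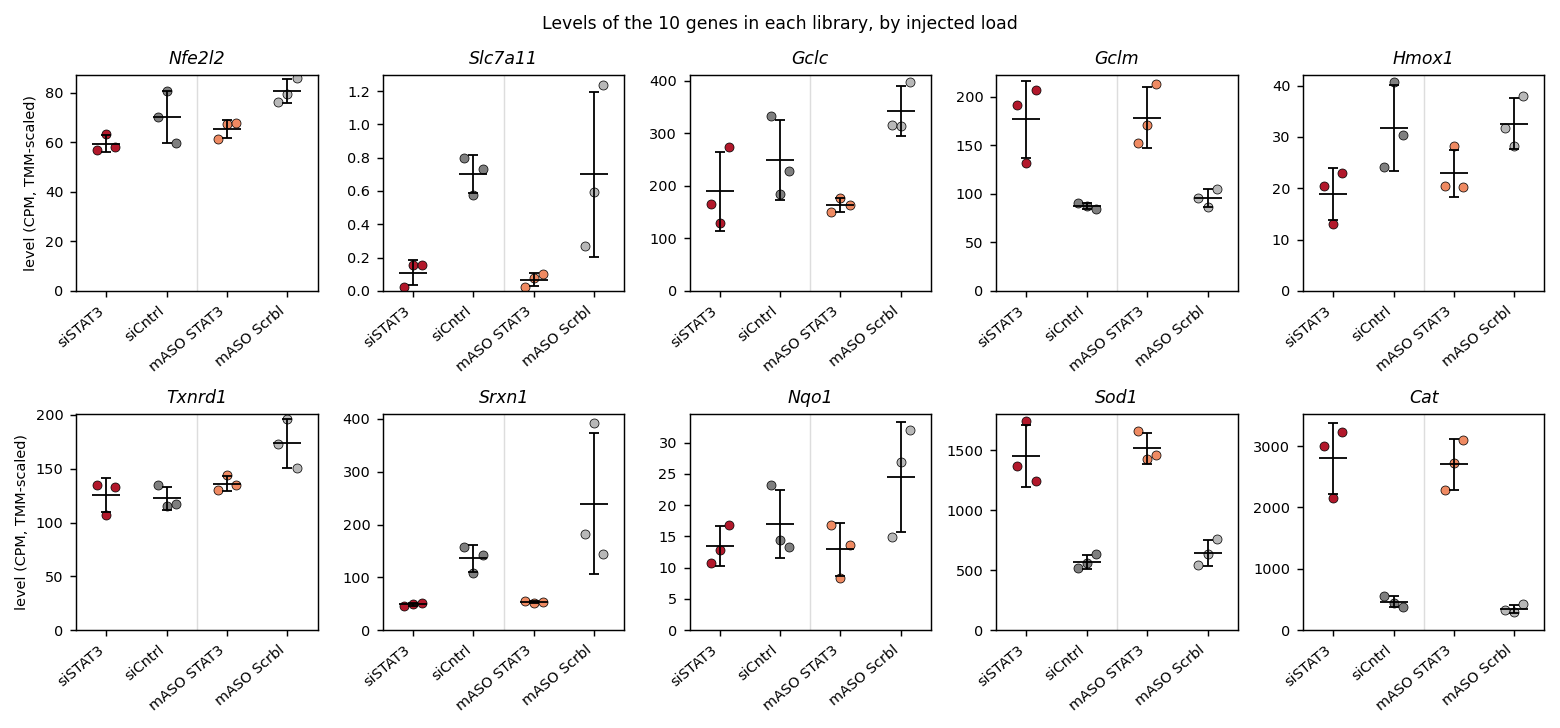
Level of each of the 10 genes in every library (CPM on TMM-scaled totals, linear axes from 0), with points for libraries, a horizontal mark for the mean and bars for the SD (n = 3). Cat, Sod1 and Gclm stand higher and Slc7a11, Srxn1 and, narrowly, Hmox1 lower in every library of a STAT3 load than in every library of its control load. The share of all genes whose groups are apart in this way was not counted.

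Catalase, the peroxisomal enzyme that breaks hydrogen peroxide into water and oxygen, showed the largest rise of the 10. Cat stood at 3008, 2149 and 3235 CPM in siSTAT3 livers, against 557, 442 and 382 CPM in siCntrl livers. It stood at 2281, 2717 and 3105 CPM in mASO STAT3 livers, against 329, 290 and 424 CPM in mASO Scrbl livers. The groups were far apart in both arms, and the lowest library of a STAT3 load lay above every control library. The rise was 6.08-fold in the siRNA arm (log2 fold change 2.60 ± 0.22, where ± is the SE for every log2 value below, edgeR adjusted p = 9.54e-07) and 7.77-fold in the mASO arm (2.96 ± 0.22, adjusted p = 3.86e-07).

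Sod1 encodes the copper and zinc superoxide dismutase, which turns superoxide into hydrogen peroxide, mostly in the cytosol. Its level was 1374, 1744 and 1249 CPM in siSTAT3 livers, against 516, 558 and 637 CPM in siCntrl livers. With the mASO loads it was 1664, 1428 and 1463 CPM in mASO STAT3 livers, against 540, 634 and 760 CPM in mASO Scrbl livers. Again no library of a STAT3 load overlapped its controls. Sod1 rose 2.55-fold in the siRNA arm (log2 1.35 ± 0.17, edgeR adjusted p = 3.39e-05) and 2.36-fold in the mASO arm (1.24 ± 0.17, adjusted p = 7.06e-05). With unscaled totals the mASO change was 0.65 on the log2 scale and still passed the test.

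The balance of Sod1 and Cat counts within a library is a measure that no library scaling can alter. Sod1 had 0.457, 0.812 and 0.386 counts per Cat count in siSTAT3 livers, against 0.928, 1.26 and 1.67 in siCntrl livers. The ratio was 0.730, 0.525 and 0.471 in mASO STAT3 livers, against 1.64, 2.18 and 1.79 in mASO Scrbl livers. The log2 ratio differed by −1.26 ± 0.41 (SE) in the siRNA arm and −1.72 ± 0.23 in the mASO arm. The groups did not overlap in either arm, and the two-sided exact permutation p was 0.1 in each, the smallest that 3 libraries against 3 allow.

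Glutathione synthesis is represented by 3 of the genes. Slc7a11 encodes the light chain of the transporter that brings in cystine, and glutamate-cysteine ligase, which makes the rate-limiting step, is built from the catalytic subunit GCLC and the modifier subunit GCLM, which relieves feedback inhibition by glutathione. The genes of this single route moved apart. Slc7a11 and Gclm changed in opposite directions in both arms, and Gclc fell in the mASO arm.

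Slc7a11 was barely detected in any group, so its values rest on few reads. It had 1, 6 and 5 counts in siSTAT3 livers, against 60, 40 and 51 counts in siCntrl livers, or 0.0205, 0.154 and 0.154 CPM against 0.800, 0.574 and 0.733 CPM. It had 1, 4 and 5 counts in mASO STAT3 livers, against 22, 49 and 100 counts in mASO Scrbl livers, or 0.0246, 0.0760 and 0.101 CPM against 0.267, 0.593 and 1.24 CPM. All libraries of the STAT3 loads were below all of their controls, and mASO Scrbl library 3 was the highest of the 12. The fitted change was −2.72 ± 0.72 on the log2 scale in the siRNA arm (edgeR adjusted p = 0.00737) and −3.31 ± 0.74 with mASO STAT3 (adjusted p = 0.00259), the second value becoming −2.61 without mASO Scrbl library 3.

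Gclm rose in both arms. Its level was 191, 132 and 207 CPM in siSTAT3 livers, against 90.5, 87.9 and 83.9 CPM in siCntrl livers. It was 152, 171 and 213 CPM in mASO STAT3 livers, against 95.5, 86.8 and 105 CPM in mASO Scrbl livers. The control libraries lay close together, and every library of a STAT3 load lay above them. Gclm was 2.02-fold higher in the siRNA arm (log2 1.02 ± 0.17, edgeR adjusted p = 0.000316) and 1.86-fold higher in the mASO arm (0.90 ± 0.17, adjusted p = 0.000825), although with unscaled totals the mASO change was 0.32 and its adjusted p was 0.124. In the GENCODE vM21 annotation 296 bases of Gclm exon overlap the antisense gene Gm17494, which averaged 0.245 CPM, and 244 bases overlap Gm6061 on the same strand, which was not analysed here.

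Gclc, the catalytic subunit, fell in the mASO arm and did not pass the test in the siRNA arm. It had 165, 129 and 274 CPM in siSTAT3 livers, against 334, 184 and 229 CPM in siCntrl livers, ranges that overlap. It had 150, 177 and 164 CPM in mASO STAT3 livers, against 316, 313 and 398 CPM in mASO Scrbl livers, ranges that do not. The siRNA change of −0.39 ± 0.26 on the log2 scale did not pass the test (edgeR adjusted p = 0.230, 95% interval −0.95 to 0.16). It passed without siSTAT3 library 3, the highest of its group (−0.76, adjusted p = 0.0188). With mASO STAT3, Gclc fell by 1.07 ± 0.26 on the log2 scale (adjusted p = 0.00484).

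The ratio of the modifier to the catalytic subunit was higher in every library of a STAT3 load than in its controls. There were 1.15, 1.02 and 0.756 Gclm counts per Gclc count in siSTAT3 livers, against 0.271, 0.476 and 0.367 in siCntrl livers. There were 1.01, 0.966 and 1.30 in mASO STAT3 livers, against 0.302, 0.277 and 0.264 in mASO Scrbl livers. The ratio was 2.66-fold higher in the siRNA arm (log2 difference 1.41 ± 0.30, SE) and 3.86-fold higher in the mASO arm (1.95 ± 0.14). Each arm reached the smallest two-sided exact permutation p possible, 0.1, and leaving out any 1 library kept the log2 difference between 1.20 and 1.61 in the siRNA arm and between 1.82 and 2.03 in the mASO arm.

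**Figure D2:**
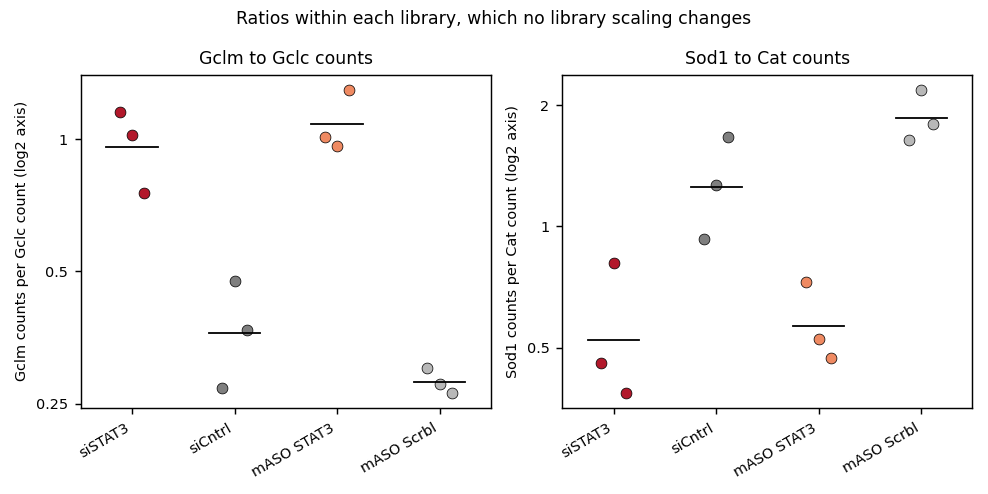
Gclm counts per Gclc count (left) and Sod1 counts per Cat count (right) in each library, on log2 axes, with a line at the mean of the log2 ratios of each group (n = 3). In both arms all libraries of the STAT3 load have more Gclm per Gclc and less Sod1 per Cat than all libraries of the control load.

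Srxn1 encodes sulfiredoxin, which restores peroxiredoxins that have been overoxidised. It had 45.7, 49.2 and 51.3 CPM in siSTAT3 livers, against 158, 108 and 143 CPM in siCntrl livers. It had 55.0, 51.9 and 52.8 CPM in mASO STAT3 livers, against 183, 392 and 144 CPM in mASO Scrbl livers. The 6 libraries of the STAT3 loads fell within a narrow band below every control library, whereas the controls were spread, with mASO Scrbl library 2 the highest. Srxn1 changed by −1.48 ± 0.29 on the log2 scale with siSTAT3 (edgeR adjusted p = 0.00118) and by −2.17 ± 0.30 with mASO STAT3 (adjusted p = 8.02e-05).

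Txnrd1 encodes the cytosolic thioredoxin reductase, a selenoprotein that passes electrons from NADPH to thioredoxin. Its level was 135, 107 and 133 CPM in siSTAT3 livers, against 135, 116 and 117 CPM in siCntrl livers. It was 130, 144 and 135 CPM in mASO STAT3 livers, against 173, 197 and 151 CPM in mASO Scrbl livers. The groups overlapped in the siRNA arm and were apart in the mASO arm. The siRNA value was 0.03 ± 0.14 on the log2 scale (edgeR adjusted p = 0.866, 95% interval −0.26 to 0.32), and −0.46 with unscaled totals. The mASO value of −0.35 ± 0.14 lay just outside the threshold (adjusted p = 0.0507), and passed it with DESeq2 (adjusted p = 0.0440) and without mASO Scrbl library 3 (−0.44, adjusted p = 0.0291) or siSTAT3 library 2 (adjusted p = 0.0312).

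Hmox1 encodes haem oxygenase 1, which opens haem into biliverdin, carbon monoxide and iron. Its level was 20.5, 13.1 and 23.0 CPM in siSTAT3 livers, against 24.1, 40.8 and 30.3 CPM in siCntrl livers. It was 20.4, 28.1 and 20.1 CPM in mASO STAT3 livers, against 31.7, 28.2 and 37.9 CPM in mASO Scrbl livers. The groups did not overlap but nearly touched in both arms. Hmox1 fell by 0.75 ± 0.23 on the log2 scale in the siRNA arm (edgeR adjusted p = 0.0172). That call was lost without siCntrl library 2 (−0.53, adjusted p = 0.0926) or siSTAT3 library 2 (−0.54, adjusted p = 0.0645), its extreme libraries. In the mASO arm the value of −0.51 ± 0.23 did not pass (adjusted p = 0.0888), and it passed without mASO STAT3 library 2 (−0.69, adjusted p = 0.0476) or siSTAT3 library 2 (adjusted p = 0.0460), with the compared libraries alone (0.0313) and with unscaled totals (−1.08, 0.00358).

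Nqo1 encodes a quinone reductase and is the gene most often used to read NRF2 activity. It had 10.7, 12.8 and 16.9 CPM in siSTAT3 livers, against 23.3, 14.4 and 13.3 CPM in siCntrl livers. It had 16.8, 8.35 and 13.6 CPM in mASO STAT3 livers, against 14.8, 26.8 and 32.0 CPM in mASO Scrbl livers. The groups overlapped in both arms. The siRNA value was −0.34 ± 0.32 on the log2 scale (edgeR adjusted p = 0.416, 95% interval −1.03 to 0.36). In the mASO arm Nqo1 fell by 0.93 ± 0.32 (adjusted p = 0.0331), a call lost without mASO STAT3 library 2 (−0.69, adjusted p = 0.118) or 3 (−0.97, 0.0707), mASO Scrbl library 2 (−0.86, 0.0866) or 3 (−0.69, 0.130), or siSTAT3 library 2 (−0.93, 0.0507).

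Nfe2l2 mRNA itself passed the test in neither arm. It had 56.9, 63.2 and 58.0 CPM in siSTAT3 livers, against 70.0, 80.5 and 59.7 CPM in siCntrl livers. It had 61.3, 67.4 and 67.6 CPM in mASO STAT3 livers, against 76.1, 79.6 and 85.8 CPM in mASO Scrbl livers. Ranges overlapped in the siRNA arm and did not in the mASO arm. The log2 values of −0.24 ± 0.12 (edgeR adjusted p = 0.131) and −0.30 ± 0.12 (adjusted p = 0.0653) did not pass the test. The siRNA value passed without siCntrl library 3 (−0.34, adjusted p = 0.0463) and the mASO value without siCntrl library 2 (−0.30, adjusted p = 0.0497), and both passed with unscaled totals.

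**Figure D3:**
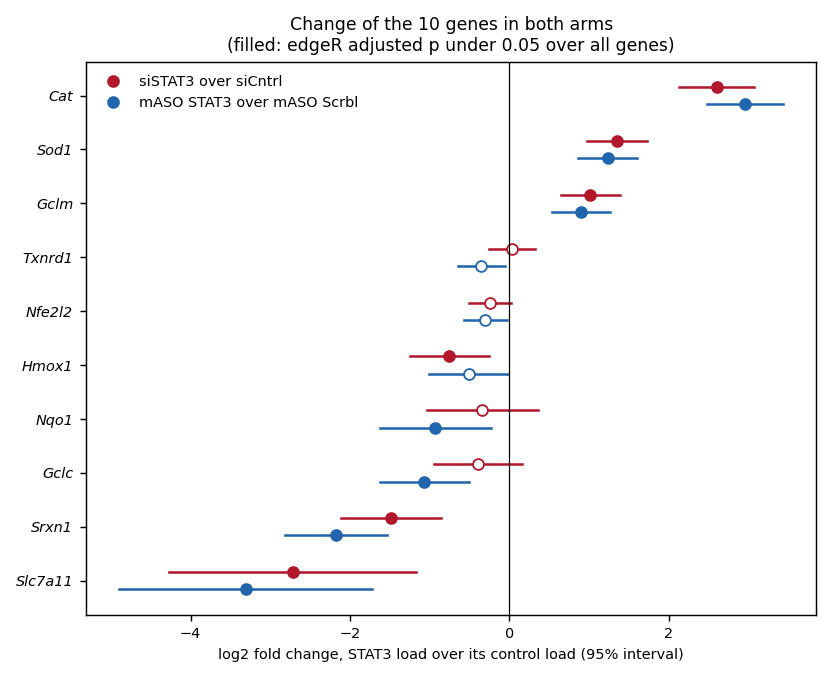
Log2 fold change of the 10 genes in the siRNA arm (red, siSTAT3 over siCntrl) and the mASO arm (blue, mASO STAT3 over mASO Scrbl), with 95% intervals from edgeR's fit and filled points where the adjusted p is under 0.05. Cat, Sod1 and Gclm lie to the right of 0 in both arms and Slc7a11 and Srxn1 to the left, on TMM-scaled totals.

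The arms were then set against each other. For the difference of the arms (mASO change minus siRNA change) 0 of 10 passed with edgeR, 0 had an unadjusted p under 0.05, and DESeq2 and limma voom called 0 each, while 0.00636% of all genes passed. The difference was −0.67 ± 0.36 on the log2 scale for Gclc (edgeR adjusted p = 0.704, 95% interval −1.46 to 0.11) and −0.59 ± 0.45 for Nqo1 (adjusted p = 0.788, −1.57 to 0.39). It was 0.24 ± 0.33 for Hmox1 (adjusted p = 0.890, −0.46 to 0.94). These intervals leave room for sizeable differences, so a call in 1 arm does not set that arm apart. Between the STAT3 loads, mASO STAT3 over siSTAT3, 0 of 10 passed with edgeR, DESeq2 or limma voom and 0 at an unadjusted p under 0.05, with 0.00% of all genes. Between the controls, mASO Scrbl over siCntrl, 0 of 10 passed with these tools, with 0.0127% of all genes. At an unadjusted p under 0.05 there were 2 in that comparison, Srxn1 (0.82 ± 0.28, adjusted p = 0.569) and Txnrd1 (0.50 ± 0.14, adjusted p = 0.427), and these control libraries also enter the changes of both arms. Of all 15720 genes, 1161 passed that unadjusted threshold for the difference of the arms, 919 between the STAT3 loads and 1234 between the controls.

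Divided by exon length, the 10 genes ranked differently in the livers of the STAT3 loads and of the controls. Lengths were the union of all annotated exons in GENCODE vM21, so a rarely used exon lowers a gene's value. In siSTAT3 livers the order ran from Cat at 1071 CPM per kilobase over Sod1 at 367 and Gclc at 50.3 to Gclm at 28.1, and in mASO STAT3 livers from Cat at 1034 over Sod1 at 382 and Gclc at 43.5 to Gclm at 28.4. In siCntrl livers Cat at 176 and Sod1 at 144 CPM per kilobase overlapped in range, as did Gclc at 66.1 and Srxn1 at 48.3, while Gclm at 13.9 stood in eighth place. In mASO Scrbl livers Sod1 at 162 and Cat at 133 CPM per kilobase overlapped, as did Gclc at 91.0 and Srxn1 at 85.0, and Gclm at 15.2 was ninth. The middle places, held by Txnrd1, Nfe2l2, Hmox1 and, in STAT3 loads, Srxn1, had several neighbours with overlapping ranges. Slc7a11 was last in every group, at 0.00786 CPM per kilobase in siSTAT3 livers, 0.0504 in siCntrl livers, 0.00482 in mASO STAT3 livers and 0.0502 in mASO Scrbl livers.

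The upstream 250 bases of the 5 genes that passed in both arms are shown because these genes moved in opposite directions while all but Cat and Sod1 are textbook NRF2 targets. Sequences are RefSeq's on GRCm38.p6, each written 5′ to 3′ on the gene's strand up to the base before the transcription start. Capitals mark a match on either strand to the core antioxidant response element TGACNNNGC or to TGANTCAGC, the form read by NRF2 with a small MAF protein.
Cat, chr2:103485154-103485403, minus strand: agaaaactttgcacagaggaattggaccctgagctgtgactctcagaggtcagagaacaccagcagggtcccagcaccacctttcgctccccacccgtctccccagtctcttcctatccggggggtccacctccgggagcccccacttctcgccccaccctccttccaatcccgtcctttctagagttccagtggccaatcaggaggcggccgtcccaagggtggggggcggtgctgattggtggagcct
Sod1, chr16:90220512-90220761, plus strand: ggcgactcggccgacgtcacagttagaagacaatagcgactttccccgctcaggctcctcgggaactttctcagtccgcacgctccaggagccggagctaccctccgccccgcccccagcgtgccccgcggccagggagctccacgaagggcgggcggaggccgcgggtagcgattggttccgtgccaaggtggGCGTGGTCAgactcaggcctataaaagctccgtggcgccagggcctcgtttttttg
Gclm, chr3:122245307-122245556, plus strand: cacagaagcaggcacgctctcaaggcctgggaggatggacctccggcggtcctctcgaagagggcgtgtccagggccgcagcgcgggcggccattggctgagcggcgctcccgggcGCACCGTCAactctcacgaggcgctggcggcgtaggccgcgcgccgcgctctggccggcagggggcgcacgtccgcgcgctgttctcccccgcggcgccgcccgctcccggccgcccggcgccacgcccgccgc
Slc7a11, chr3:50443614-50443863, minus strand: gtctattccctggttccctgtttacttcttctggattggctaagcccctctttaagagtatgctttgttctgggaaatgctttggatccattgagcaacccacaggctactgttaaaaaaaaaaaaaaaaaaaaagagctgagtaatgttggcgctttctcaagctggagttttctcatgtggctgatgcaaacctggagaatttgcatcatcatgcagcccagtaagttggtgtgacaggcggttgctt
Srxn1, chr2:152105274-152105523, plus strand: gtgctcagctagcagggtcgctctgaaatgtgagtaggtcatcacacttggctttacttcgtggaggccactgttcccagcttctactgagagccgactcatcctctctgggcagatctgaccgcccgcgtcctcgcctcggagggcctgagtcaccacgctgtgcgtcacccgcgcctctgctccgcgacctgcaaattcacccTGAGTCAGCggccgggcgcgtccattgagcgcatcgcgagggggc

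RefSeq's table held 8 of the 10 genes, with 10 windows in all, and not Gclc and Hmox1. The core element TGACNNNGC was matched in 4 of the 10 windows, those of Nfe2l2, Gclm and Sod1 and 1 of the 3 of Txnrd1. Of 32851 windows of the same length 10.2% held a match. The window of Nfe2l2 is less sure, since the bases after its start were found in no GENCODE vM21 transcript of the gene. In Gclm the match lay 134 to 126 bases before the start and in Sod1 56 to 48 bases before it, both on the opposite strand. TGANTCAGC was matched in Srxn1 alone, 45 to 37 bases before the start, against 1.02% of all windows. Among the genes shown, Gclm and Sod1 rose and Srxn1 fell with a match in the window, and Cat rose and Slc7a11 fell with none, which describes these letters only.

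Around NRF2, 12 partners and regulators were examined. In the siRNA arm 4 were higher and 1 lower and in the mASO arm 3 were higher and 2 lower, with median log2 fold changes of −0.07 and −0.08. In each arm 41.7% of the 12 passed, not far from the 45.7% and 43.8% of all genes. Counts in the lists below stand against the same shares, 22.4% and 21.3% of all genes higher and 23.4% and 22.5% lower. Their counts with unscaled totals stand against other shares, 10.5% and 9.7% of all genes higher and 46.2% and 50.5% lower. With unscaled totals 1 partner was higher in each arm and 8 and 7 were lower. The higher count of the siRNA arm was 2 without siCntrl library 2, siSTAT3 library 1 or siSTAT3 library 3, and its lower count was 2 without siCntrl library 1 or mASO STAT3 library 3 and 3 without siSTAT3 library 3. Small MAF genes moved apart, since Mafg averaged 120.2 ± 25.7 CPM in siSTAT3 livers and 36.8 ± 7.82 CPM in siCntrl livers, whereas Maff averaged 5.08 ± 1.43 CPM in siSTAT3 livers and 14.1 ± 4.28 CPM in siCntrl livers. Mafg rose by 1.71 ± 0.20 and 1.57 ± 0.20 on the log2 scale in the siRNA and mASO arms (edgeR adjusted p = 1.37e-05 and 2.69e-05). Maff had changes of −1.48 ± 0.27 and −1.78 ± 0.27 (adjusted p = 0.000543 and 0.000134). Keap1, the NRF2 repressor, rose by 0.55 ± 0.12 and 0.58 ± 0.12 (adjusted p = 0.00256 and 0.00188), changes of 0.05 and 0.00 with unscaled totals.

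Of 11 tested genes of glutathione supply and recycling, 3 were higher and 3 lower in the siRNA arm and 5 higher and 4 lower in the mASO arm, with medians of 0.14 and 0.17, although with unscaled totals 0 and 2 were higher and 5 were lower in the siRNA arm. The mASO count of higher genes was 3 without mASO STAT3 library 3 or mASO Scrbl library 1. Gsr, which reduces oxidised glutathione with NADPH, fell in both arms (log2 −1.15 ± 0.13 and −1.26 ± 0.14, edgeR adjusted p = 1.59e-05 and 7.15e-06). Slc3a2, the heavy chain that partners the Slc7a11 product, also fell (−0.75 ± 0.14 and −0.95 ± 0.14, adjusted p = 0.000729 and 0.000117). Of 6 glutathione peroxidases, 1 was higher and 2 lower in the siRNA arm and 2 higher and 2 lower in the mASO arm, where 1 was higher with unscaled totals. Gpx1, the abundant cytosolic selenoenzyme of liver, averaged 4042 ± 643 CPM in siSTAT3 livers and 537 ± 67.2 CPM in siCntrl livers. Livers of the mASO arm averaged 3983 ± 200.4 CPM with mASO STAT3 and 646 ± 39.1 CPM with mASO Scrbl. These rises of 2.91 ± 0.17 and 2.63 ± 0.17 on the log2 scale (adjusted p = 4.60e-08 and 9.02e-08) stood beside Gpx8, a peroxidase of the endoplasmic reticulum, at −2.18 ± 0.29 and −1.20 ± 0.28 (adjusted p = 5.06e-05 and 0.00385). Gpx8 was far lower in level than Gpx1. It averaged 1.62 CPM in siSTAT3, 7.41 in siCntrl, 2.13 in mASO STAT3 and 4.87 in mASO Scrbl livers. Gpx3, the secreted form, had changes of −2.10 ± 0.34 and −1.09 ± 0.33 (adjusted p = 0.000338 and 0.0178). Without mASO STAT3 library 1 (adjusted p = 0.0674) or 3 (−1.02, 0.0636) or mASO Scrbl library 3 (−0.81, 0.0787) the mASO call of Gpx3 was lost, which left 1 lower peroxidase.

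The thioredoxin and peroxiredoxin list, 14 genes without Srxn1 and Txnrd1, had 8 higher and 0 lower in each arm, although with unscaled totals 4 were higher and 3 lower in each arm. DESeq2 and limma voom also found 0 lower, as did an unadjusted edgeR p under 0.05, and without siCntrl library 1 there was 1 lower in the siRNA arm. Medians were 0.60 and 0.69 on the log2 scale. Msrb1, which repairs oxidised methionine, rose by 1.87 ± 0.18 and 2.24 ± 0.18 (adjusted p = 2.89e-06 and 7.30e-07), and Prdx6, a peroxiredoxin that reduces phospholipid peroxides, by 1.57 ± 0.17 and 1.28 ± 0.17 (adjusted p = 7.50e-06 and 3.82e-05). In the list of 4 dismutase and copper genes without Sod1, Ccs and Sod2 were higher in both arms, and 0 were lower with edgeR, DESeq2, limma voom or an unadjusted p under 0.05, although 1 was lower in the siRNA arm with unscaled totals. Ccs, the chaperone that loads copper into the SOD1 protein, rose by 1.91 ± 0.14 and 2.16 ± 0.14 (adjusted p = 3.16e-07 and 1.29e-07). Sod2, the mitochondrial dismutase, rose by 1.01 ± 0.13 and 1.25 ± 0.13 (adjusted p = 2.76e-05 and 4.49e-06).

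Of 9 genes of NADPH supply, 4 were higher and 2 lower in the siRNA arm and 5 higher and 2 lower in the mASO arm, with 2 higher in each arm with unscaled totals. Both lower genes belong to the oxidative pentose phosphate pathway, but this pathway did not fall as a whole. Pgls, another of its enzymes, was higher in both arms (0.83 ± 0.21 and 0.92 ± 0.21, edgeR adjusted p = 0.00527 and 0.00292). It was not among the 2 higher genes with unscaled totals. G6pdx, its first enzyme, averaged 4.97 ± 0.80 CPM in siSTAT3 livers and 24.5 ± 3.86 CPM in siCntrl livers, changes of −2.30 ± 0.23 in this arm and −2.73 ± 0.23 in the mASO arm (edgeR adjusted p = 4.21e-06 and 1.06e-06). Pgd, a later enzyme of the pathway, had changes of −1.80 ± 0.12 and −1.54 ± 0.12 (adjusted p = 1.22e-07 and 3.70e-07). The mitochondrial enzymes Idh2 (1.55 ± 0.15 and 1.54 ± 0.15, adjusted p = 3.64e-06 and 3.73e-06) and Nnt (1.22 ± 0.15 and 1.19 ± 0.15, adjusted p = 2.18e-05 and 2.61e-05) rose.

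In the list of haem breakdown and iron storage without Hmox1, 5 of 10 were higher and 3 lower in the siRNA arm and 5 higher and 2 lower in the mASO arm, although with unscaled totals 3 and 1 were higher and 5 lower in each arm. The ferritin chains, which store iron, went opposite ways. Fth1, the heavy chain, averaged 2462 ± 127 CPM in siSTAT3 livers and 4744 ± 428 CPM in siCntrl livers, and changed by −0.95 ± 0.14 and −0.91 ± 0.14 on the log2 scale (edgeR adjusted p = 9.72e-05 and 0.000137). Ftl1, the light chain, rose by 1.02 ± 0.17 and 0.65 ± 0.17 (adjusted p = 0.000256 and 0.00587), the mASO value being 0.07 with unscaled totals. Ferritin has many near-identical copies in the genome, so these levels are uncertain.

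Of 20 tested detoxification genes known as NRF2 targets, 10 were higher and 4 lower in the siRNA arm and 10 higher and 3 lower in the mASO arm, 7 lower in the mASO arm with unscaled totals, and medians were 0.76 and 0.50. The higher genes included the mu-class glutathione transferases Gstm3 (4.74 ± 0.33 and 3.63 ± 0.31, edgeR adjusted p = 2.17e-07 and 1.09e-06) and Gstm2 (2.65 ± 0.22 and 1.82 ± 0.21, adjusted p = 7.96e-07 and 1.63e-05). The lower genes, named after their values were seen, were the alpha-class transferase Gsta1 (−1.84 ± 0.37 and −2.30 ± 0.38), the carbonyl reductase Cbr3 (−2.23 ± 0.44 and −1.60 ± 0.42), the aldo-keto reductase Akr1b8 (−1.84 ± 0.28 and −1.17 ± 0.28) and, in the siRNA arm, Akr1b3 (−0.91 ± 0.26). Gsta1 averaged 1.75 CPM in siSTAT3 livers and 6.25 CPM in siCntrl livers, Cbr3 0.760 and 3.64 CPM, and Gstm3 26.3 and 0.983 CPM. The Akr1b3 call was lost without siCntrl library 2 (−0.68, adjusted p = 0.0604), and Cbr3 was at −2.96 in the siRNA arm without siSTAT3 library 1. Transferase genes and aldo-keto reductase genes are near copies of each other, so reads may be shared between them.

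Of 18 peroxisome genes, a list that holds the hydrogen peroxide producers beside which catalase works, 10 were higher and 1 lower in the siRNA arm and 11 higher and 1 lower in the mASO arm, although with unscaled totals 4 and 7 were higher and 5 and 7 lower. Without mASO Scrbl library 2 the siRNA arm had 2 lower. Hao1, an oxidase that makes hydrogen peroxide from glycolate, rose by 0.89 ± 0.18 and 1.37 ± 0.18 (edgeR adjusted p = 0.00135 and 5.01e-05). Pex16, needed to build the peroxisome membrane, rose by 0.69 ± 0.13 and 0.88 ± 0.13 (adjusted p = 0.000576 and 8.33e-05), with 0.20 in the siRNA arm with unscaled totals. The lower gene of each arm, named after its value was seen, was Acox2, a branched-chain acyl-CoA oxidase (−1.35 ± 0.21 and −0.87 ± 0.20).

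Among NADPH oxidase genes, which make superoxide or hydrogen peroxide, Ncf1 and Cyba encode subunits of the phagocyte oxidase. Ncf1 fell with siSTAT3 (−1.06 ± 0.30, edgeR adjusted p = 0.0105), a call lost without siCntrl library 2 (−0.75, 0.0622), and stood at −0.18 ± 0.29 with mASO STAT3 (adjusted p = 0.648). Cyba fell with siSTAT3 (−0.90 ± 0.31, adjusted p = 0.0306), and lost the call without siCntrl library 2 (−0.52, 0.169) or 3 (−0.89, 0.0670) or siSTAT3 library 1 (−0.82, 0.0944) or 3 (−0.79, 0.102), and also with limma voom (−0.79, 0.0699), with the compared libraries alone (0.0620) and without a filter (0.0579). With mASO STAT3 it stood at −0.18 ± 0.31 (adjusted p = 0.668).

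Slc7a11 is also a target of the stress factor ATF4, and of 12 other ATF4 genes 5 were lower in each arm. Of all genes, 23.4% were lower in the siRNA arm and 22.5% in the mASO arm. In the siRNA arm 6 of the 12 did not pass and in the mASO arm 5. Atf4 itself stood at −0.06 ± 0.16 in the siRNA arm (edgeR adjusted p = 0.786) and rose by 0.43 ± 0.16 in the mASO arm (adjusted p = 0.0461). Higher were 1 in the siRNA arm and 2 in the mASO arm, the mASO count being 1 without any of the 6 mASO libraries or siSTAT3 library 1, and 8 and 9 were lower with unscaled totals. Psat1, an enzyme of serine synthesis, averaged 0.685 ± 0.26 CPM in siSTAT3 livers and 81.2 ± 12.3 CPM in siCntrl livers, and 0.636 ± 0.05 CPM in mASO STAT3 livers and 100.2 ± 16.8 CPM in mASO Scrbl livers. Its changes of −6.90 ± 0.25 and −7.29 ± 0.25 (edgeR adjusted p = 1.07e-09 and 8.12e-10) were accompanied by those of Asns, asparagine synthetase (−4.34 ± 0.41 and −3.91 ± 0.39, adjusted p = 2.72e-06 and 4.28e-06). Shmt2, a mitochondrial enzyme of folate metabolism, rose instead (1.73 ± 0.12 and 1.53 ± 0.12, adjusted p = 1.84e-07 and 4.39e-07).

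**Figure D4:**
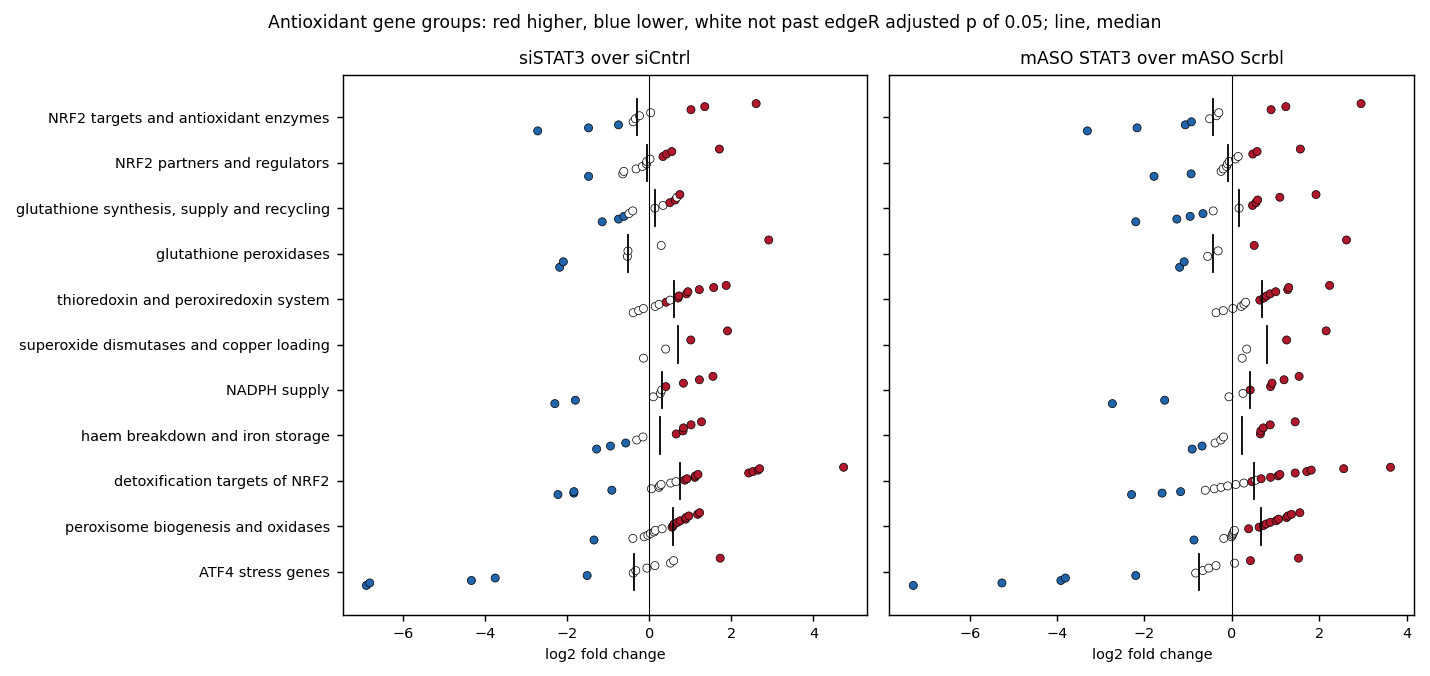
Log2 fold change of every tested gene of the antioxidant gene groups on the axis in the siRNA arm (left) and the mASO arm (right), 1 point per gene, with a line at each group's median. On TMM-scaled totals the thioredoxin and dismutase groups hold no blue point in either arm, while with unscaled totals the thioredoxin group had 3 lower genes in each arm and the dismutase group 1 in the siRNA arm.

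For the difference of the arms edgeR called 0 genes in each of the 11 lists around the 10 genes. At an unadjusted p under 0.05 the highest count was 5 of 20, all lower, in the detoxification list. Of all 15720 genes 1161 passed that unadjusted threshold. By the adjusted p none of these lists was thus shown to respond differently in the arms.

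Markers of several liver cell types also differed between the STAT3 loads and their controls, and in bulk RNA fewer cells of a type and less RNA per cell cannot be told apart. The 16 hepatocyte markers, none at 0 in any group, summed to 157469 to 172831 CPM in siSTAT3 livers and 75604 to 120792 CPM in siCntrl livers, and to 142105 to 181577 CPM in mASO STAT3 livers and 73199 to 105323 CPM in mASO Scrbl livers. Of these 6 were higher in the siRNA arm and 9 in the mASO arm, with 0 lower by edgeR, DESeq2 and limma voom and 1 and 0 lower at an unadjusted p under 0.05, although with unscaled totals 3 and 5 were higher and 3 lower in each arm, and 2 were lower in the siRNA arm without siCntrl library 3. The sums are on TMM-scaled totals, and with unscaled totals the hepatocyte sums of the groups overlap in each arm. Hepatocyte markers, which define liver tissue, were thus abundant in every group. The 11 monocyte and scar-associated macrophage markers summed to 292 to 390 CPM in siSTAT3 livers and 1284 to 2334 CPM in siCntrl livers, with 9 lower, and to 300.5 to 356 CPM in mASO STAT3 livers and 1134 to 1976 CPM in mASO Scrbl livers, with 6 lower. The 14 stellate cell and myofibroblast markers summed to 304 to 446 CPM in siSTAT3 livers and 1492 to 1997 CPM in siCntrl livers, and to 433 to 529.9 CPM in mASO STAT3 livers and 1049 to 2265 CPM in mASO Scrbl livers. Of these 12 and 10 were lower and 1 and 2 higher, the siRNA count of higher markers being 0 without siCntrl library 3 and 2 without siSTAT3 library 2. Cholangiocyte markers summed to 103 to 177 CPM in siSTAT3 livers and 594 to 1431 CPM in siCntrl livers, and to 99.5 to 127 CPM in mASO STAT3 livers and 632 to 1376 CPM in mASO Scrbl livers, with 4 of 8 tested lower in each arm. Spp1, which encodes the secreted protein osteopontin, stands in both the cholangiocyte and the monocyte and macrophage lists and made up 84.5% to 94.3% of the cholangiocyte sum in siCntrl livers and 88.8% to 93.9% in mASO Scrbl livers. Without Spp1 the cholangiocyte sum was 34.3 to 56.3 CPM in siSTAT3 livers and 63.3 to 92.2 CPM in siCntrl livers, and 44.3 to 46.0 CPM in mASO STAT3 livers and 70.9 to 86.7 CPM in mASO Scrbl livers. The monocyte and macrophage sum without it was 223 to 269 CPM in siSTAT3 livers and 505 to 987 CPM in siCntrl livers, and 218 to 296 CPM in mASO STAT3 livers and 573 to 684 CPM in mASO Scrbl livers. Neither sum without Spp1 overlapped between the groups of an arm.

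Immune and vascular markers moved less evenly. The 12 neutrophil markers summed to 18.0 to 66.0 CPM in siSTAT3 livers and 56.8 to 112 CPM in siCntrl livers, ranges that overlap, with 6 lower, and to 22.2 to 24.0 CPM in mASO STAT3 livers and 38.9 to 98.1 CPM in mASO Scrbl livers, with 7 lower, or 3 without mASO STAT3 library 1 or 3 or mASO Scrbl library 1. The summed Kupffer cell markers overlapped between groups in both arms, at 574 to 788 CPM in siSTAT3 livers and 509.5 to 1384 CPM in siCntrl livers, and at 633 to 714 CPM in mASO STAT3 livers and 517 to 898 CPM in mASO Scrbl livers. Single markers split, with 1 of 11 higher and 3 lower in the siRNA arm and 2 higher and 2 lower in the mASO arm. With unscaled totals 0 were higher in each arm. Cd68 was lower (log2 −2.44 ± 0.19 and −2.69 ± 0.19, edgeR adjusted p = 4.84e-07 and 2.34e-07), as was Marco. Timd4 was higher (0.86 ± 0.30 and 0.98 ± 0.30, adjusted p = 0.0300 and 0.0161). Sums of sinusoidal endothelial and of B and plasma cell markers also overlapped in both arms. Of the 10 endothelial markers, however, 5 were lower in the siRNA arm, or 3 without siCntrl library 2 or siSTAT3 library 1 or 2, and 3 were lower and 1 higher in the mASO arm. Those mASO counts were 1 lower without mASO STAT3 library 1 or 3 or mASO Scrbl library 1 or 3, and 0 to 2 higher with 1 library left out. Lyve1, a hyaluronan receptor, was at −1.77 ± 0.47 and −1.81 ± 0.47 on the log2 scale (edgeR adjusted p = 0.00886 and 0.00780), and Pecam1, a junction protein, at −1.17 ± 0.27 and −0.79 ± 0.26 (adjusted p = 0.00289 and 0.0270). Sums of T and NK cell markers were apart in the mASO arm only. They were 6.01 to 6.35 CPM in mASO STAT3 livers and 2.37 to 4.33 CPM in mASO Scrbl livers. Sums of erythroid markers were apart in the siRNA arm only. They were 177 to 218 CPM in siSTAT3 livers and 78.3 to 156.7 CPM in siCntrl livers. With unscaled totals the sums of both lists overlap in these arms too. The part of these shifts in the changes of Cat, Sod1, Gclm, Slc7a11, Srxn1, Hmox1, Gclc and Nqo1 was not tested.

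**Figure D5:**
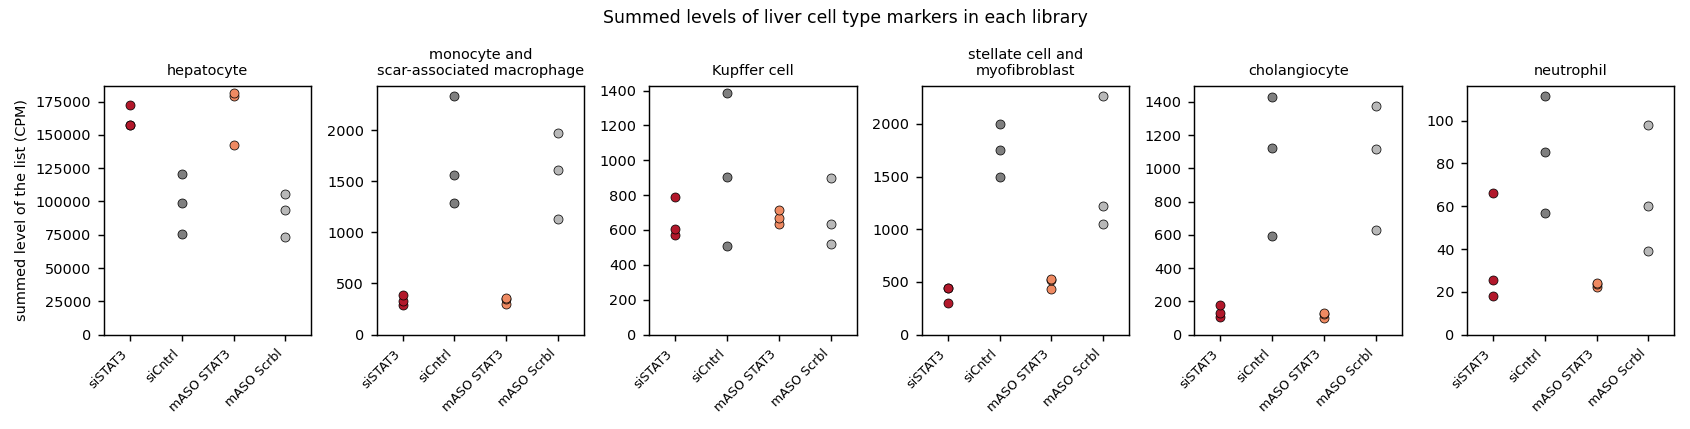
Summed level (CPM on TMM-scaled totals, linear axes from 0) of 6 lists of cell type markers in each library, 3 points per group. Spp1 counts in both the cholangiocyte and the monocyte and macrophage sums. On these totals hepatocyte sums are higher and monocyte and macrophage, stellate cell and cholangiocyte sums lower in every library of a STAT3 load than in every library of its control load. With unscaled totals the hepatocyte sums of the groups overlap in each arm.

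Among themselves the 10 genes were loosely tied once group means were removed. Over 45 pairs the median Pearson r of log2 CPM was 0.30 over the 12 libraries and 0.13 within groups, with 5 pairs above 0.5 and 2 below −0.5 within groups. Cat and Gclm varied most alike within groups (r = 0.87), and Txnrd1 and Sod1 most oppositely (r = −0.75). Libraries share their scaling, so these values are descriptions. Among 12412 tested genes of at least 1 CPM on average, likeness was taken as the r over the 12 libraries, which holds the difference between the STAT3 loads and the controls. By this r the gene most like Cat was Slc10a1, which takes up bile acids into hepatocytes (r = 0.997), followed by Auh (0.995). Those most like Gclm were Aldh6a1 (0.988) and Ugt2b34 (0.985), and those most like Sod1 were Pebp1 (0.988) and Atp5o (0.987). On the other side Srxn1 was most like Tbrg1 (0.983) and Prrc1 (0.982), and Slc7a11 most like Fos (0.948), an immediate early gene, and Ift57 (0.947). For the other members the highest values were 0.960 for Txnrd1 with Wdr36, 0.956 for Hmox1 with Sec14l1, 0.944 for Gclc with Cmpk2, 0.920 for Nfe2l2 with Ccnd1 and 0.898 for Nqo1 with 3110002H16Rik.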

How the data were processed

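Liver mRNA from 12 samples was sequenced with a stranded Illumina kit, per the labels' protocols. Raw counts, 1 row per gene symbol, were tested as the authors deposited them. The normalized signal that the authors deposited beside them equals the count over a single factor for each library, by its values, and no result uses it. The submitters' processing notes name TopHat and Cufflinks and no role for either. No source used here states the build, gene annotation, counting tool or use of strand, so reads of overlapping, antisense and near-identical genes may be shared.

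All libraries entered 1 edgeR 4.0.16 fit (R 4.3.3) of the group means, with TMM scaling, filterByExpr (minimum count 10, total 15), the robust quasi-likelihood test and Benjamini-Hochberg adjustment over 15720 genes, with a threshold of 0.05. The SE is the log2 fold change over the square root of F. Ratios of counts were tested by exact permutation. Alternatives used DESeq2 1.42.0 and limma 3.58.1 (voom), and are given in the closing section. The count model was tested on simulated data in which 200 genes changed, up or down at random. Those data held no shift of the bulk of genes between groups, so they do not check the scaling. Pairs of libraries of a group differed by a chi-square of 52.6 to 222 per degree of freedom, so none was a duplicate.

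The genes and lists were chosen with earlier results of these data known. All 10 genes are named, and from each list up to 4 with the smallest p could be named, of which the examples were picked after their values were seen. Listed symbols without a row or under the filter were not analysed here. The full count of the NADPH oxidase list is not reported here.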

Additional observations from a re-analysis of the deposited data

How the results depend on the processing

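The 10 genes gave 398 values in both arms under the alternatives, of which 365 kept their direction and side of the threshold, 10 lost a call, 18 gained one and 5 changed sign. All 5 were Txnrd1 in the siRNA arm, at −0.46 with unscaled library totals, −0.00 without a filter, −0.01 without siCntrl library 2, −0.03 without siSTAT3 library 1 and −0.02 without siSTAT3 library 3 (−0.03 to 0.13 over all libraries left out in turn). Cat, Sod1 and Srxn1 passed under all 20 alternatives in both arms, as did Gclm in the siRNA arm, and Slc7a11 under all 19 in which it was tested, since it fell under the filter of 1 CPM. With unscaled totals 7 of the 10 were lower in both arms, and over all genes siSTAT3 gave 1655 higher and 7266 lower and mASO STAT3 1525 higher and 7939 lower, against 3515 higher and 3675 lower, and 3344 higher and 3542 lower, with TMM. Txnrd1 in the mASO arm also passed with the compared libraries alone (adjusted p = 0.0466), the filter of 1 CPM (0.0404) and unscaled totals (0.000114), Nfe2l2 in the mASO arm with the compared libraries alone (0.0474), and Gclc and Nqo1 in the siRNA arm with unscaled totals (0.00921 and 0.0332). Nqo1 in the mASO arm also lost its call with the compared libraries alone (adjusted p = 0.0561) and without a filter (0.0712). Gpx3 in the mASO arm lost it without a filter (0.0517) and without mASO STAT3 library 1 (0.0674) or 3 (0.0636) or mASO Scrbl library 3 (0.0787). Ncf1 in the mASO arm was −0.18, and −0.40 to 0.01 with 1 library left out. Stat3 was −0.54 in the siRNA arm and −0.53 in the mASO arm with unscaled totals (edgeR adjusted p = 0.00446 and 0.00413). With 1 library left out Stat3 ran from −0.12 to 0.08 with siSTAT3 and from −0.04 to 0.15 with mASO STAT3.

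Over all genes the difference of the arms gave 1 call with edgeR, 62 with DESeq2, 2 with limma voom, 2 with the filter of 1 CPM, 3 without a filter and 0 to 8 with 1 library left out. The controls gave 2 calls, against 79 with DESeq2, 5 with unscaled totals, 7 without a filter and 0 to 13 with 1 library left out. The STAT3 loads gave 0 calls, against 79, 6 without a filter and 0 to 5. The cause was not tested.

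Replicate numbers did not pair the libraries, since residual correlations of same-numbered libraries ran from −0.0899 to 0.155 with the siRNA loads and −0.0887 to 0.00493 with the mASO loads, and 1 of 12 libraries was most like one of its own number. A replicate block left 3 higher and 3 lower of the 10 with siSTAT3 and 3 higher and 4 lower with mASO STAT3, and gave 0 calls for the difference of the arms. Depth limits Slc7a11 above all, with 1 to 6 counts in each library of a STAT3 load.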
